A study of Homo sapiens with 4 samples.

Results

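Of the 28775 rows of the promoter count table, 37 carried the Entrez identifier of a gene on the mitochondrial chromosome, and these were taken as the genes of the mitochondrial genome. They comprised 13 protein-coding genes, 22 tRNA genes and 2 rRNA genes, which is the full gene set of the human molecule. The other 28738 rows belonged to nuclear genes. Membership was set by gene identity and not by a count, though the set was chosen with earlier results of these data known.

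Accessibility was measured by ATAC-seq, in which the transposase Tn5 cuts open DNA and leaves sequencing adapters at the cuts, in HEK293T, an established human embryonic kidney cell line. All libraries came from cells that carried the unmodified MORC2 gene. The overexpression group (2 libraries) received pBacMam-MORC2-meGFP, a plasmid encoding the nuclear DNA-compacting ATPase MORC2 fused to a green fluorescent protein, and was collected 72 h after transfection with Lipofectamine. The control group (2 libraries) received lipofectamine. The labels name no empty plasmid for the controls, so the presence of plasmid DNA and of extra MORC2 cannot be told apart. The study calls its ATAC-seq replicates biological, and the labels do not say whether they came from separate cultures, so p-values measure only the spread between these libraries.

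The mitochondrial genome is a small circular molecule kept in many copies per cell and packed by the protein TFAM, without nucleosomes. Both of its strands are transcribed as long precursors from a non-coding control region, and the tRNAs that lie between the other genes mark where these precursors are cut. Its proteins are core subunits of respiratory complexes I, III and IV and of the ATP synthase, and its rRNAs and tRNAs serve their translation. Since the DNA is free of nucleosomes, Tn5 cuts it readily, and mitochondrial fragments are a known large fraction of ATAC-seq libraries that depends on how far mitochondria are washed away from the nuclei.

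Summed counts per library ranged from 3734519 to 10255182. The windows of ACTB and GAPDH, used in every cell, held 98 to 784 counts per library. Among genes taken as open in this line, LHX1 (53 to 178 counts) lay above all 6 genes of other tissues (1 to 47 counts) in every library, whereas PAX2, EYA1 and GATA2 did not all do so (1 to 72 counts). No nuclear promoter reached the level of the lowest mitochondrial gene in any library.

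The first comparison set the mitochondrial genes as a whole against the nuclear promoters in each library. The counts of the 37 genes summed to 5326320 in control 1, 4604440 in control 2, 5384773 in overexpression 1 and 2754624 in overexpression 2. Those of the nuclear promoters summed, in the same order, to 4928862, 3675088, 1826951 and 979895. The mitochondrial sum of overexpression 1 was therefore 1.01 times that of control 1, while its nuclear sum was 0.371 times. In overexpression 2 both sums were lower than in control 1, to 0.517 times for the mitochondrial and 0.199 times for the nuclear counts. The ratio of mitochondrial to nuclear counts was 1.08 and 1.25 in control and 2.95 and 2.81 in overexpression, and the groups did not overlap. Neighbouring mitochondrial genes share fragments, so their sum can count a fragment more than once. The ratio therefore compares libraries and does not give the proportion of mitochondrial fragments. The means were 1.17 ± 0.122 and 2.88 ± 0.0964 (SD, n = 2 each), a 2.47-fold difference, with an exact two-sided permutation p of 0.33, the smallest that 2 against 2 libraries allow. A ratio of this kind cannot separate more mitochondrial DNA from fewer nuclear fragments, nor a change in the cells from a change in how many mitochondria stayed with the nuclei. The typical gene showed the same order. The median mitochondrial gene held 1212 and 1406 times the count of the median detected nuclear promoter in control, and 3101 and 2932 times in overexpression.

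**Figure D1:**
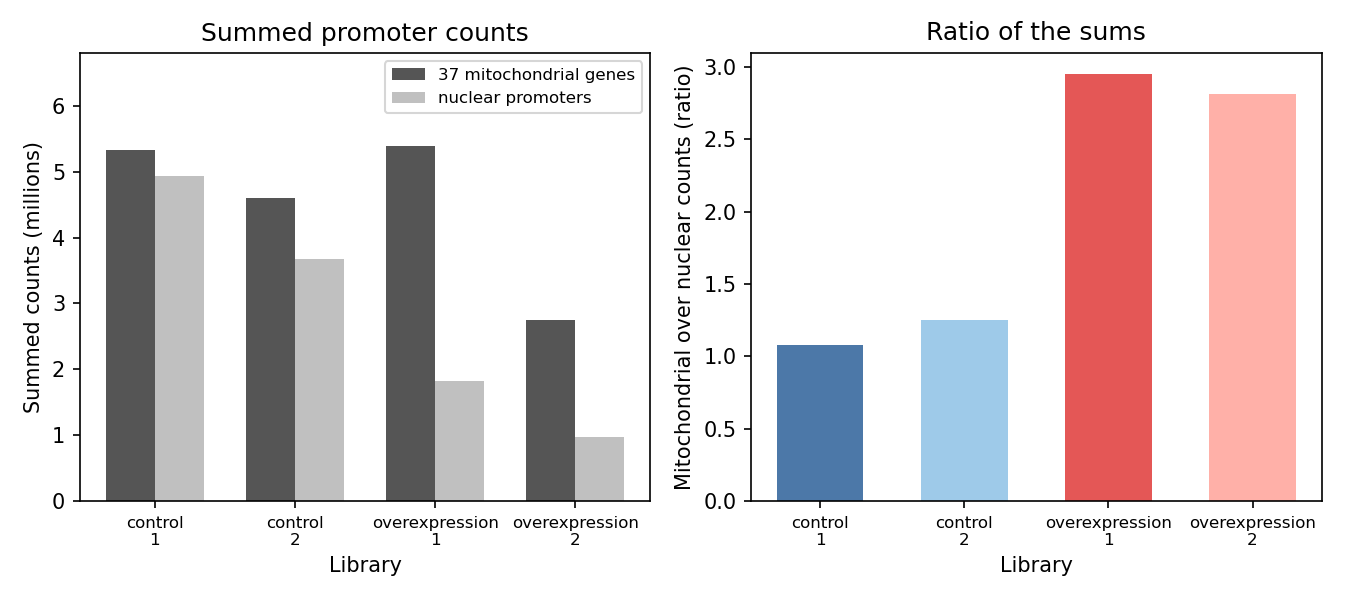
Summed counts (left) of the 37 mitochondrial genes and of all nuclear promoters, and the ratio of the 2 sums (right). Each bar is 1 library, and mitochondrial genes share fragments, so the sums are not numbers of fragments. The mitochondrial sum was alike in control 1 and overexpression 1, and the ratio lay at 2.81 or more in both overexpression libraries against 1.25 or less in both controls.

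Each class of gene contributed nearly the same proportion of the mitochondrial sum in the 4 libraries. The 22 tRNA genes made up 52.1% and 52.0% of it in control and 52.2% in each overexpression library. The 13 protein-coding genes made up 44.7% in each control library and 44.6% in each overexpression library. The 2 rRNA genes made up 3.21%, 3.22%, 3.18% and 3.20%. The 9 genes encoded on the light strand, ND6 and 8 tRNA genes, held between 24.3% and 24.6% of the sum in every library. These shares partly follow how many of the 37 genes each group holds, and the counts are not split by strand. Genes also share fragments with their neighbours, so the shares do not rank classes or strands.

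Counts then were followed along the molecule, in the order of the genes on the map from TRNF to TRNP, which face each other across the control region. COX1, the catalytic subunit of cytochrome c oxidase (complex IV), was the highest gene in every library, with 238209, 205668, 243703 and 124103 counts (the controls first, then the overexpression libraries, as in all such lists below). TRNF, the tRNA gene for phenylalanine and the first gene after the control region, was the lowest in every library, with 3368, 2913, 3498 and 1769 counts. The highest gene stood 70.7 and 70.6 times above the lowest in control, and 69.7 and 70.2 times in overexpression. These ranges differed by less than the counting error of TRNF alone, whose 95% exact Poisson interval in control 1 (3255 to 3484 counts) placed the ratio between 68.4 and 73.2. The means were 70.7 ± 0.0874 and 69.9 ± 0.343 (SD, n = 2 each), with an exact permutation p of 0.33, and the ranges without TRNF, TRNT and TRNP lay in the opposite order (5.71 ± 0.0455 in control and 5.83 ± 0.0367 in overexpression).

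The lowest counts were those of genes at the ends of the map, next to the control region. Whether they reflect the molecule or how genes at the ends of the map were counted was not tested. On the TRNF side counts rose stepwise, from TRNF to RNR1 (the 12S rRNA of the small ribosomal subunit), TRNV (the tRNA gene for valine) and RNR2 (the 16S rRNA of the large subunit), and then dropped to TRNL1 (a tRNA gene for leucine), at 0.884 to 0.897 times RNR2. RNR1 held 41500, 36237, 41651 and 21400 counts, and RNR2 held 129221, 111928, 129737 and 66664. On the other side TRNP, the tRNA gene for proline and the last gene before the control region, held 84925, 73745, 82744 and 44493 counts, between 0.613 and 0.651 times its neighbour TRNT, the tRNA gene for threonine. TRNT itself was close to the other tRNA genes, with 134496, 116594, 134975 and 68355 counts. TRNY, the tRNA gene for tyrosine, was the highest of its class in every library but control 2, with 152672 counts in control 1. The median tRNA gene held 143242 counts there and the median protein-coding gene 184716. Away from the ends of the map, the tRNA genes TRNH, TRNS2 and TRNL2 were low too. They held 118972, 116776 and 115871 counts in control 1, near TRNL1 at 115258.

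**Figure D2:**
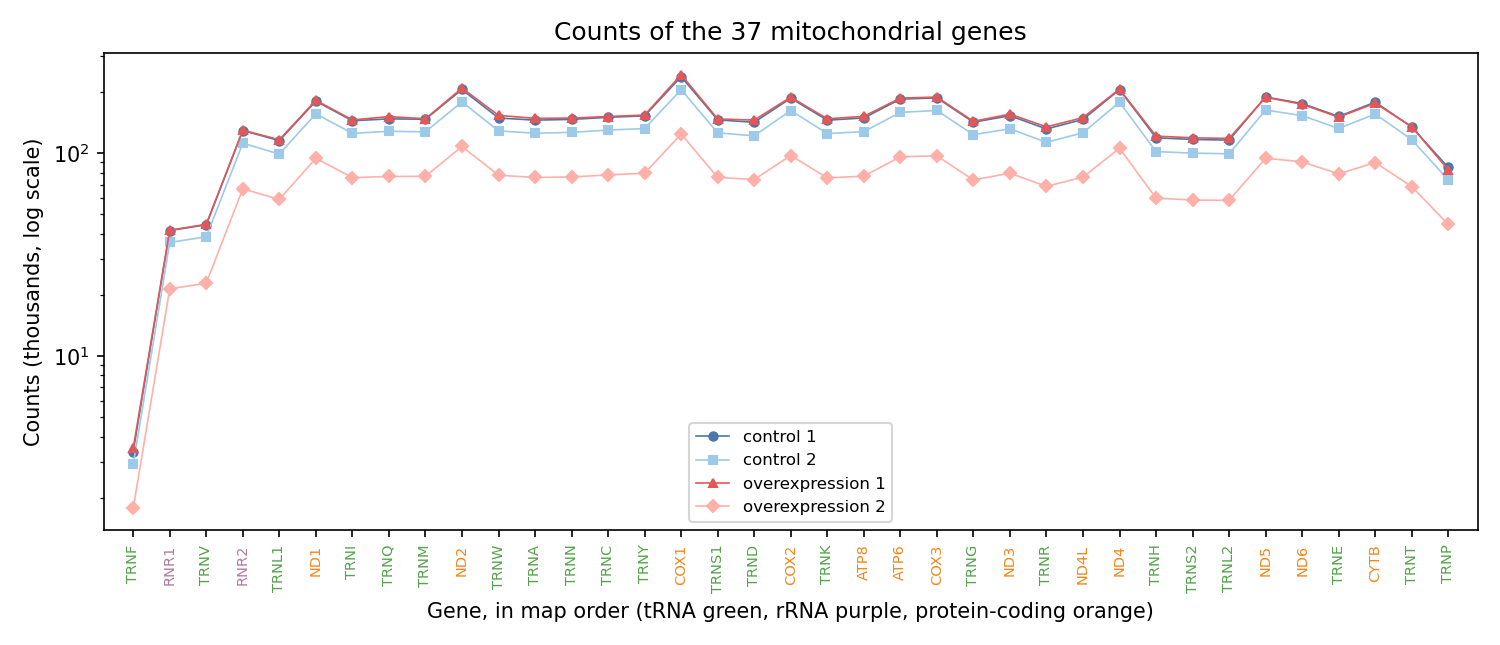
Counts per gene (log scale) for the 37 genes in map order, with 1 line per library. The 4 profiles are parallel, with TRNF lowest, a rise to RNR2, a small drop to TRNL1 and a plateau from ND1 on. Higher protein-coding genes and a dip from TRNH to TRNL2 break the plateau, which ends in a fall at TRNP.

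The profile followed gene length as well as position. Over the 30 genes from ND1 to CYTB in control 1, counts rose by 47.6 per base of gene length from an intercept of 139175 counts, as much as 2922 bases would hold at that slope (Pearson's r 0.87 and Spearman's rho 0.76 over genes). The slope was 41.6 in control 2, 47.1 in overexpression 1 and 23.9 in overexpression 2, with intercepts worth 2885, 3001 and 3025 bases. Genes are not replicates, and these share fragments, so the values are descriptive. Over all 37 genes r fell to 0.48 in control 1, since the 7 genes at the ends of the map lay below the line.

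Neighbours of unequal length had unequal counts. TRNY and COX1 follow each other on the map, yet COX1 held 1.56 to 1.58 times the counts of TRNY in the 4 libraries. Each of the 9 protein-coding genes that follow a tRNA gene held more than that neighbour, by 1.02 to 1.64 times. Neighbouring tRNA genes stayed within 0.967 and 1.04 times of each other in the 9 pairs that leave out TRNP. Windows of equal width around neighbouring start sites would hold much the same fragments, so the deposited values did not behave as counts in a fixed window of 2 kb, the promoter width given in the methods of the study. The windows behind each row were not used here.

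Counts per base of gene length do not measure density here, because the shared intercept puts short genes first by construction. In control 1 the median tRNA gene held 2063 counts per base, the median protein-coding gene 239 and the rRNA genes 43.5 (RNR1) and 82.9 (RNR2). TRNF was the lowest of its class, at 47.4 counts per base in control 1, 41.0 in control 2, 49.3 in overexpression 1 and 24.9 in overexpression 2, close to the slope of counts on length in each library. Up to RNR2, the steps at the start of the map were of similar size per base at first and larger at the third. From TRNF to RNR1 the count rose by 40.0 per base of RNR1, from RNR1 to TRNV by 40.8 per base of TRNV, and from TRNV to RNR2 by 54.5 per base of RNR2, all in control 1. In overexpression 2, the shallowest library, the same steps were 20.6, 20.8 and 28.1.

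**Figure D3:**
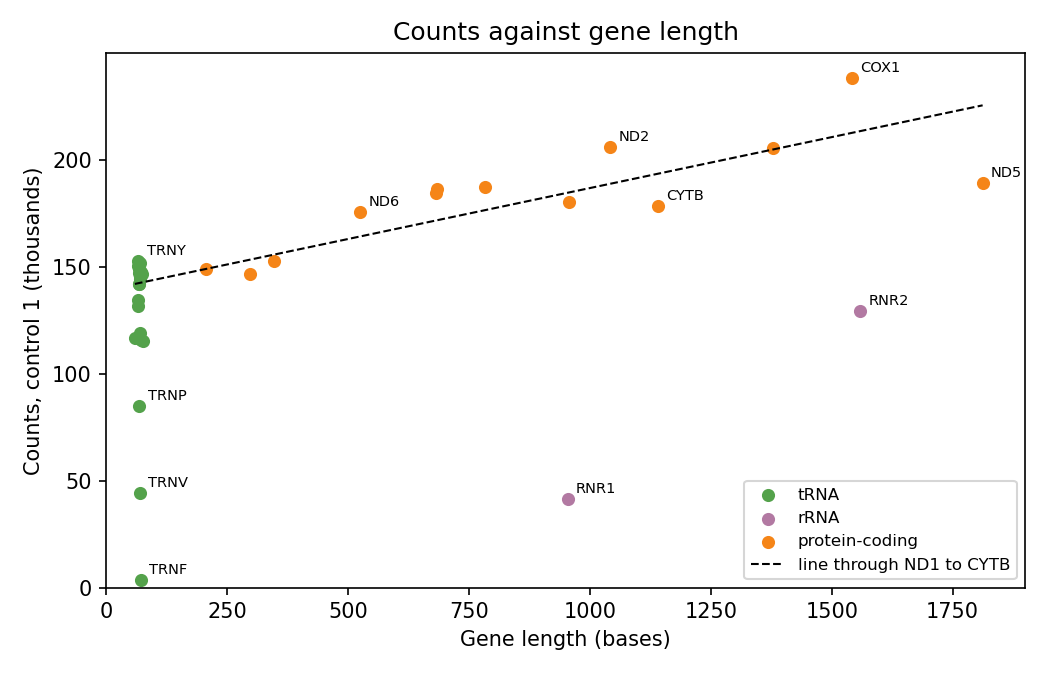
Counts in control 1 against gene length (bases) for the 37 genes, coloured by class, with the straight line through the 30 genes from ND1 to CYTB. The 22 tRNA genes have nearly the same length but span from TRNF at 3368 to TRNY at 152672 counts, and RNR1, RNR2 and ND5 lie below the line.

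The second comparison asked how each gene changed against the nuclear promoters, with libraries scaled by TMM (trimmed mean of M-values), which the 23370 nuclear promoters tested dominate. All 37 mitochondrial genes rose in overexpression (edgeR quasi-likelihood test, Benjamini-Hochberg adjusted over 23407 promoters), where 1.16% of all promoters tested rose, 1.3% fell and 2.47% changed in either direction. The log2 fold changes of the 37 lay between 1.20 and 1.28 with a median of 1.25, against a median of 0.01 for all promoters tested. For each of the 37, both overexpression libraries lay above both controls, as they did for 24.8% of all promoters. The 37 values are close to 1 measurement made 37 times, because the genes lie on 1 molecule and share fragments.

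Among protein-coding genes the largest change was that of ND4L, a small membrane subunit of complex I, and the smallest that of CYTB, cytochrome b of complex III. ND4L stood at 10439 and 12110 CPM (counts scaled to the TMM-adjusted library size) in control against 27897 and 26106 with MORC2 overexpressed, with a change of 1.26 log2 units and an SE of 0.17 (adjusted p 1.06e-10). CYTB stood at 12709, 14982, 32866 and 30795 CPM with a change of 1.20 log2 units and an SE of 0.17 (adjusted p 2.19e-09). The overexpression libraries were more than 2 times as high as the controls for both genes. These SEs include variation between libraries that the genes share, so they do not compare genes with each other. Against the mitochondrial total, the third comparison below, the SE of CYTB was 0.0084. COX1 had 16968, 19768, 45427 and 42525 CPM and rose by 1.26 (SE 0.18, adjusted p 2.19e-09). ND6, a complex I subunit and the only protein encoded on the light strand, had 12513, 14706, 32445 and 31024 CPM and rose by 1.22 (SE 0.17, adjusted p 1.01e-09).

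The RNA genes rose by 1.22 to 1.28 log2 units, and their changes were not tested against those of the protein-coding genes. TRNF stood at 239.9, 280.0, 652 and 606 CPM, with the largest log2 fold change of the 37 at 1.28 (SE 0.08, adjusted p 7.04e-52). TRNP had 6049, 7088, 15424 and 15246 CPM and the smallest change of the tRNA genes, 1.22 (SE 0.15, adjusted p 8.79e-12). For RNR1, with 2956, 3483, 7764 and 7333 CPM, the log2 fold change was 1.23 (SE 0.14), and for RNR2, with 9204, 10758, 24183 and 22843 CPM, it was 1.24 (SE 0.16). The SE was smallest for TRNF (0.08), the lowest gene, and largest for COX1 (0.18), the highest. Medians by class were 1.25 for the tRNA genes, 1.25 for the protein-coding genes and 1.23 for the rRNA genes, and 1.25 for either strand. TRNY and TRNT changed by 1.25 and 1.22.

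**Figure D4:**
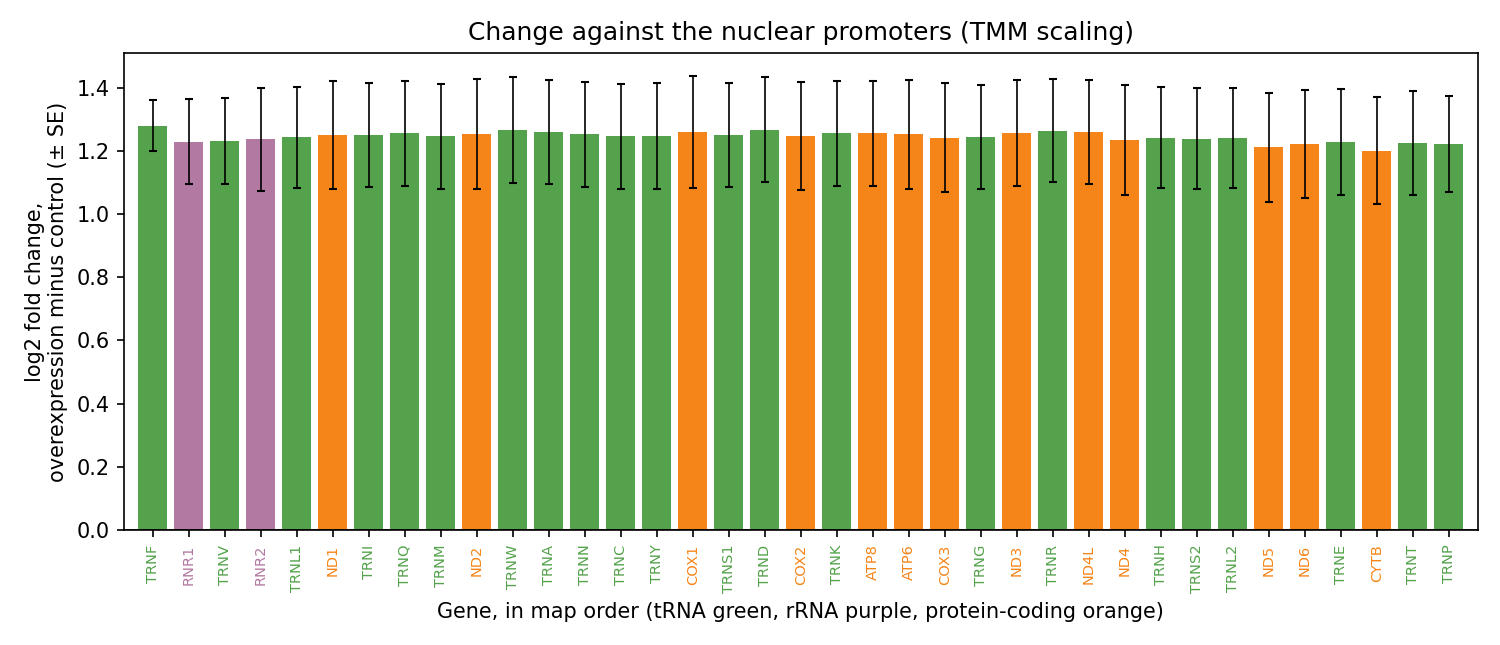
Log2 fold change of each of the 37 genes (overexpression minus control, TMM scaling), in map order and coloured by class, with error bars of 1 SE from the edgeR fit. All bars lie between 1.20 and 1.28. The SEs include variation between libraries that the genes share, so they do not compare genes with each other.

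The size of this rise depends on how libraries are scaled. Scaled by library totals, which the mitochondrial counts dominate, the median of the 37 was 0.47 while that of all promoters fell to −0.78. With loess scaling on abundance 11 of the 37 rose and 9 fell, where 74 of all 23407 promoters tested were called. The log2 fold changes of the 37 then lay between −0.10 and 1.23, with a median of 0.02. The highest value, 1.23, was that of TRNF, RNR1 had 0.40, and the lowest, −0.10, was that of COX1. The mitochondrial genes are alone at their abundance, and how far they set the curve of this scaling was not tested. Without overexpression replicate 1 the median of the 37 was 1.21, and without overexpression replicate 2 it was 1.29. In both fits fewer of the 37, and fewer of all promoters, passed the threshold than in the full fit.

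The third comparison removed the shared rise by scaling each library to its mitochondrial total, so that a gene could change only against the other 36. Here the log2 fold changes lay between −0.04 and 0.03, or between −2.95% and 2.13%. The threshold was passed by 6 of the 37, of which 3 rose and 3 fell. In this fit 84.1% of all promoters passed, nearly all of them lower nuclear promoters, so that adjustment over the whole table hardly raised a p-value above its unadjusted size, and 0.0171% of all promoters rose. DESeq2 called 0 of the 37, also at an unadjusted p under 0.05, and limma-voom called 9.

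The 3 genes that fell were CYTB, ND5 (a proton-pumping subunit of complex I) and ND6, which lie close together near the end of the map. CYTB held 3.35% and 3.39% of the mitochondrial counts in control and 3.27% and 3.26% in overexpression, a change of −2.95% (adjusted p 4.85e-07, edgeR). ND5 held 3.55% and 3.54% in control and 3.50% and 3.43% in overexpression, a change of −2.36% (adjusted p 2.81e-05, edgeR). ND6 held 3.30%, 3.32%, 3.23% and 3.29% (adjusted p 0.0104, edgeR). For these genes both overexpression libraries lay below both controls, narrowly in the case of ND6. The 3 genes that rose were COX1 and the tRNA genes for tryptophan (TRNW) and aspartic acid (TRND). COX1 held 4.47% in each control library and 4.53% and 4.51% in overexpression, a change of 1.03% (adjusted p 0.0305, edgeR). TRNW changed by 1.47% and TRND by 1.55%, with adjusted p of 0.0315 and 0.0294. These calls were few and unstable. With either control library left out ND5 and CYTB passed, and without overexpression replicate 1, 6 genes passed and all of them fell. With TMM among the 37, 6 genes passed and again all fell, so the 3 rises were lost (adjusted p 0.103 to 0.177, edgeR). In the fit of the 37 genes alone, where nuclear promoters do not enter, CYTB alone passed.

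The small log2 fold changes against the mitochondrial total were ordered along the molecule. Those of all 10 genes from ND4 to TRNP lay below 0, and those of 20 of the 22 genes from ND1 to ND4L above it, though many were smaller than their SE. From TRNF to TRNL1, 4 of 5 lay below 0, with TRNF the exception. The stretch from ND4 to TRNP held 27.6% and 27.7% of the mitochondrial counts in control and 27.3% and 27.2% in overexpression. The stretches were drawn after the values were seen, and neighbouring genes share fragments, so no test was made. The 2 overexpression libraries did not have the same profile within that stretch. TRNH, TRNS2 and TRNL2, tRNA genes for histidine, serine and leucine, held 2.25%, 2.21% and 2.19% in overexpression 1, above both controls, and 2.18%, 2.13% and 2.12% in overexpression 2, below both. TRNP held 1.54% in overexpression 1 and 1.62% in overexpression 2, on either side of both controls (1.59% and 1.60%). Over all 37 genes, 12 had a higher share in both overexpression libraries than in both controls and 8 a lower one, against 0.192% and 91.6% of all promoters on this scale. Those percentages are set by nuclear promoters, most of which were lower against the mitochondrial total, so they are no yardstick for the 37. Shares within the 37 also add to a fixed total, so rises and falls are tied.

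**Figure D5:**
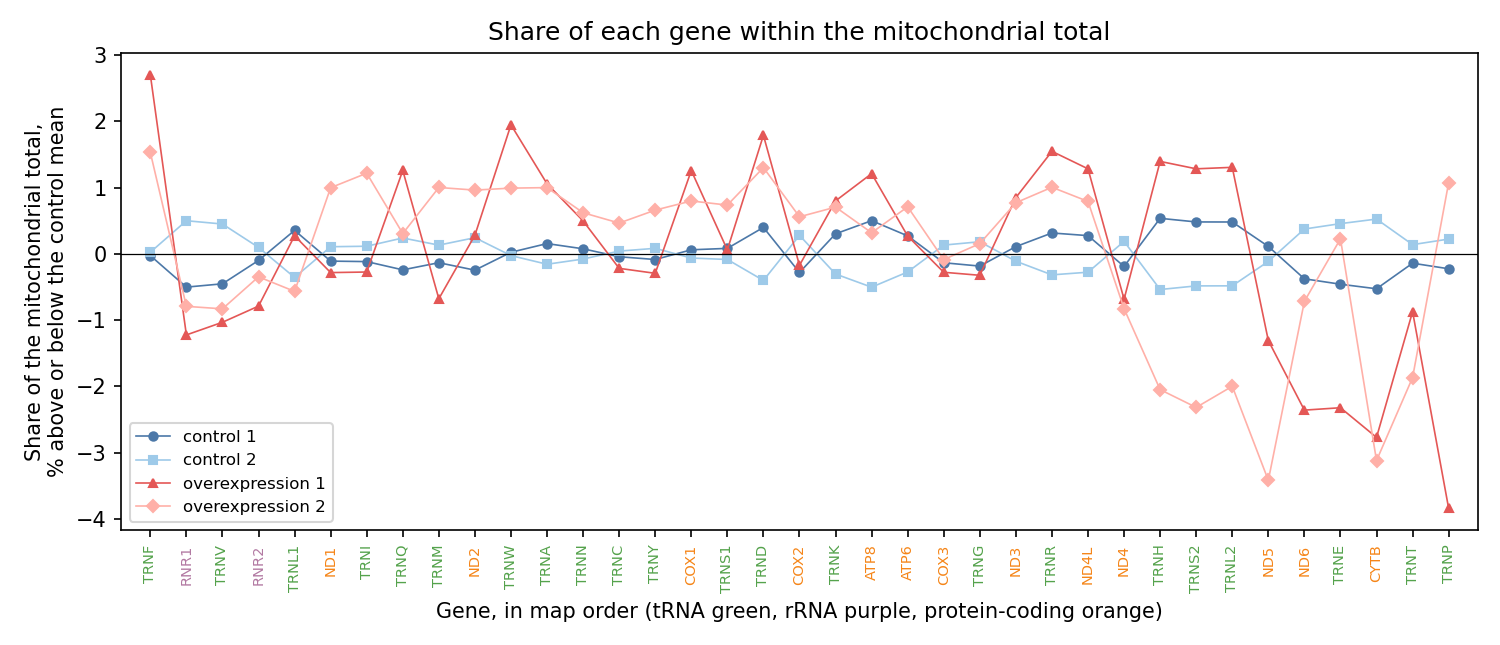
Share of each gene in the mitochondrial total of its library, as percent above or below the mean of the 2 control libraries, in map order with 1 line per library. The controls stay within 1% of their mean, while the overexpression libraries fall below it from ND4 on in most genes, the lowest points being TRNP in overexpression 1 and ND5 in overexpression 2.

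Peaks called by the authors with MACS on each group gave a second view of the molecule, with 1 list per group and no replicates. The control list had 6 peaks on the mitochondrial chromosome among 59797, and the overexpression list 5 among 34898. They covered 13364 bp and 12653 bp. In control the peaks were chrM:196-6403, chrM:6811-7715, chrM:8191-9410, chrM:10070-10692, chrM:11204-11628 and chrM:12497-16479, on CHM13. Of these, 5 overlapped a peak of the overexpression list, each by at least 50% of both peaks, and chrM:11204-11628 had none there. Genes were not placed on these coordinates, because the gene table used is of another assembly. The low counts of TRNF and TRNP were therefore not compared with the peaks.

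The mitochondrial peaks had low fold enrichment and varied widths. This fold is a ratio over the MACS background, so it does not compare levels of signal with nuclear peaks or between the lists. How much of that background came from the mitochondrial molecule itself was not tested. The fold enrichment at the summit was highest at the last peak, 3.16 in control and 2.73 in overexpression (chrM:12583-16468), and lay between 1.15 and 1.62 at the other 5 control peaks and between 1.08 and 1.45 at the other 4 overexpression peaks. For comparison, the median nuclear peak had a fold of 5.72 in control and 6.06 in overexpression, and the lowest 1.60 and 1.88. The fold of each matched mitochondrial peak was lower in the overexpression list. In control the first and the last peak were 6208 and 3983 bp wide, wider than any nuclear peak (3801 bp at most), whereas chrM:11204-11628, at 425 bp, was narrower than the median nuclear peak (483 bp). The −log10 q of the last peak was 5485 in control, above all nuclear peaks, and 3857 in overexpression, below 1 nuclear peak.

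No promoter from 2 lists of nuclear genes rose past the threshold, as 1.16% of all promoters did. The lists were of genes that act on the mitochondrial genome and genes for subunits of its complexes. Of 27 nuclear genes for mitochondrial DNA upkeep and transcription, 0 rose and 1 fell past the threshold (edgeR, against 1.16% and 1.3% of all promoters). DESeq2 called 0 of the 27, and 108 of the 23407 promoters tested. An unadjusted p under 0.05 was reached by 6 of the 27, against 17.2% of all promoters, and the median log2 fold change was −0.14 against 0.01. Of the 6, TOP1MT, the mitochondrial topoisomerase, had a positive value, 0.76 (adjusted p 0.149, edgeR). The one that fell was RNASEH1, which removes RNA from RNA-DNA hybrids, with 33.2, 27.9, 21.1 and 20.2 CPM, a difference of −0.57 log2 units with an SE of 0.14 (adjusted p 0.00491). It did not pass without control replicate 1 or without either overexpression library. TFAM, which packs mitochondrial DNA, had 36.8, 35.9, 31.9 and 27.1 CPM, with an adjusted p of 0.202 (edgeR). Of 32 nuclear genes for respiratory chain subunits, 0 passed the threshold in edgeR or DESeq2, against 2.47% of all promoters in edgeR, and 3 had an unadjusted p under 0.05, against 17.2%. Their median log2 fold change was −0.09. With 27 and 32 members, the lists were too short to tell 0 or 1 calls from the shares over all promoters.

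Among nuclear promoters tested, 255 had a log2 fold change at least as large as the lowest of the mitochondrial genes, and 108 of these passed the threshold. MIR4485, just under that value, was looked at for its likeness to the mitochondrial genome. It is a microRNA gene on chromosome 11 whose sequence resembles part of RNR2, and was the 1 promoter in the table from a list of 14 nuclear genes with such likeness, and the other 13 were not analysed here. Its mature product is printed because of that likeness, with the seed, bases 2 to 8, in capitals (RefSeq, GRCh38.p14).
hsa-miR-4485-3p: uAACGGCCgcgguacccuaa
The promoter held 1044, 991, 1034 and 566 counts. In both overexpression libraries no nuclear promoter held more, while 67 and 12 did in the controls. At 74.4, 95.3, 193 and 194 CPM it rose by 1.20 log2 units (adjusted p 1.38e-41, edgeR). Against the mitochondrial total it hardly differed, at 0.0196%, 0.0215%, 0.0192% and 0.0205%, a difference of −0.05 log2 units with an SE of 0.12 (adjusted p 0.673, edgeR). How many of its fragments came from the mitochondrial molecule was not tested.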

How the data were processed

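Paired 65-base reads were trimmed by the authors, who, per the labels and their methods, aligned them with Bowtie2 to T2T-CHM13, kept proper pairs with a mapping quality of at least 30 and discarded Picard-marked duplicates. The deposited table holds whole-number counts per promoter, unnormalised, for 4 libraries. The deposited peak lists, made with MACS2, hold 1 list per group, taken here as calls on pooled libraries, with a summit fold (ratio over background) and a −log10 q value.

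Symbols, neighbours and gene lengths (all 37 genes) came from a RefSeq gene table of GRCh38.p14, and lengths on CHM13 may differ by a few bases. The table names 28763 rows and leaves 12 unnamed. Members and gene lists were chosen with earlier results of these data known.

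Promoters were kept with filterByExpr (23407), with full column totals as library sizes and TMM factors, and tested by the two-sided quasi-likelihood F-test of edgeR 4.0.16 in R 4.3.3 (legacy form), with Benjamini-Hochberg adjustment over all tested promoters and a threshold of 0.05. The second fit used the mitochondrial total as library size. Trended dispersions under the range in which the deviance of this edgeR version was accurate were raised to a floor, which touched no value of the TMM and mitochondrial-total fits reported first, but did touch loess scaling, the 37 genes alone and the replicate block on the mitochondrial total. Scripts were tested on simulated data. Alternatives used DESeq2 1.42.0 and limma 3.58.1. Exact permutation tests used scipy 1.17.1. Genes were named as the highest and lowest level and the largest and smallest change of each class, TRNF, TRNT, TRNP, RNR1, RNR2, ND6, up to 5 genes per direction past the threshold against the mitochondrial total, and up to 5 per direction in the nuclear lists; TRNV, TRNL1, TRNH, TRNS2, TRNL2, ND1, ND4, TFAM, TOP1MT and the stretches of the map were named after their values were seen. Intervals cover counting error only. The replicate numbers were not taken to pair libraries. One marker gene is not reported here.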

Additional observations from a re-analysis of the deposited data

How the results depend on the processing

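The number of mitochondrial genes past the threshold was 37 in the TMM fit and stayed at 37 with DESeq2 size factors, library totals, TMM on nuclear promoters, no filter, a mean count of at least 50, DESeq2, limma-voom and the replicate block. It was 20 with loess scaling and 10 to 37 with 1 library left out. Their median log2 fold change was 1.25, and 0.47 with library totals, 0.020 with loess scaling and 1.14 to 1.36 with 1 library left out. With loess scaling the change was −0.10 for COX1, −0.058 for ND6 and −0.081 for CYTB. The mitochondrial to nuclear ratio was 2.30-fold to 2.53-fold higher in overexpression under the 4 other ways to form it and 2.30-fold to 2.66-fold with 1 library left out. The highest over the lowest count in overexpression relative to control was 0.989 (0.986 to 0.993 with 1 library left out), 1.00 for the 90th over the 10th percentile and 1.02 without TRNF, TRNT and TRNP.

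Against the mitochondrial total 6 genes passed, and 0 with DESeq2, 1 among the 37 genes alone, 2 to 8 with 1 library left out and 6 (all falling, against 3 of 6), 5 and 9 with TMM among the 37, no filter and limma-voom. The replicate block gave 12 there. In the TMM fit it left the 37 and the nuclear list counts as they were and took the calls over all promoters from 577 to 488. Same-numbered libraries deviated with a correlation of 0.0506 over 14976 promoters, so the numbers were not taken as pairs. Of the upkeep genes 1 passed, and 26 with library totals, 0 with loess scaling, 0 with DESeq2 and 0 to 1 with 1 library left out. Of the respiratory chain genes 0 passed, and 32 with library totals. With library totals 16319 of the 23407 promoters tested passed, at a median log2 fold change of −0.78. The 26 and 32 are therefore not particular to these lists. Over all promoters, loess scaling called 74 and DESeq2 108. The counts of peaks did not change with a −log10 q of at least 10 or an overlap of 50%. With 1 library left out, the lone library of its group is assumed to vary like the pair in the other group. Causes were not tested. With 2 libraries per group no exact test could pass 0.05, and the depth of TRNF limits its ratio to a few percent.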
